A study of Mus musculus with 12 samples.

Results

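Mpo, Elane, Prtn3, Ctsg and Ms4a3 are genes of the promyelocyte, the stage of neutrophil development at which primary (azurophil) granules are made and filled. They were taken by name from the deposited expression table, which held a single row for each of the 5 among its 34745 genes. All 5 passed the filter on low counts in all 6 comparisons between groups. Total bone marrow RNA from the femur was sequenced for 12 male mice of the outbred ICR strain, 3 per group. Mice of the normal group were given saline. All others were injected intraperitoneally on days 5 to 7 with 80 mg/kg of cyclophosphamide, a DNA-alkylating drug that depletes marrow. Beside it, model mice were given saline by mouth, QJSB mice 3 g/kg of Qi-Jing-Sheng-Bai granule (a herbal formula) and leucogen mice 20 mg/kg of leucogen (a drug for low leucocyte counts), daily over 1 week. Cyclophosphamide was thus common to 3 of the 4 groups, and neither treatment was given without it. The columns of the table are headed Blank, Model, Positive and Stilbene1. These were taken to be normal, model, leucogen and QJSB from what the words mean and by elimination, so each direction given for leucogen or QJSB depends on that reading.

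Neutrophils store their antimicrobial proteins in granules made one kind after another. Primary granule genes are switched on in promyelocytes and shut off as the cells mature, after which the genes of secondary and tertiary granules, such as those of lactoferrin and gelatinase B, take over. Their RNA in marrow is for this reason widely used as a mark of the early granulocytic stage. Mpo encodes myeloperoxidase, the heme enzyme that makes hypochlorous acid. Elane, Prtn3 and Ctsg encode neutrophil elastase, proteinase 3 and cathepsin G, serine proteases of the granule that are activated by the product of Ctsc. Elastase is held in the granule on the proteoglycan serglycin. Ms4a3 encodes a membrane protein of the MS4A family that marks granulocyte-monocyte progenitors and is not a protease.

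The genes lie on 4 chromosomes. In the deposited coordinates (GRCm38), Prtn3 (ENSMUSG00000057729) at chr10:79874476-79883174 and Elane (ENSMUSG00000020125) at chr10:79886312-79888216 stood 3138 bases apart on the plus strand. Mpo (ENSMUSG00000009350) lay at chr11:87793581-87804413 on the plus strand, Ctsg (ENSMUSG00000040314) at chr14:56099881-56102574 on the minus strand and Ms4a3 (ENSMUSG00000024681) at chr19:11629496-11640851 on the minus strand. In GENCODE M21 the longest transcript had 14 exons for Mpo, 5 each for Elane, Prtn3 and Ctsg, and 7 for Ms4a3.

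The bases just before the annotated starts are shown because all 5 genes were higher in each cyclophosphamide group than in normal marrow, as described below. They come from RefSeq (GRCm38.p6), read 5′ to 3′ in the direction of the gene within the 250 bases before the RefSeq start, and end where the first GENCODE exon begins. The printed stretches are chr11:87793534-87793580 (+) for Mpo, chr10:79886062-79886246 (+) for Elane, chr10:79879417-79879613 (+) for Prtn3, chr14:56102575-56102824 (−) for Ctsg and chr19:11640852-11641101 (−) for Ms4a3. The stretch of Prtn3 lies inside the gene, in an intron of longer GENCODE transcripts. Capitals mark GAGGAA, one form of the site bound by ETS factors such as PU.1. Forms of ETS sites without GAGGAA were neither searched nor marked, so a stretch without capitals may still hold one.
Mpo: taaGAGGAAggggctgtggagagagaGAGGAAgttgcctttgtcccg
Elane: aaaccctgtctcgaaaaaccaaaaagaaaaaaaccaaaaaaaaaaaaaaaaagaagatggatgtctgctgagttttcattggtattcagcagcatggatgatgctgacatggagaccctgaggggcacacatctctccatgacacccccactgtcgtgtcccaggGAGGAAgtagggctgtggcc
Prtn3: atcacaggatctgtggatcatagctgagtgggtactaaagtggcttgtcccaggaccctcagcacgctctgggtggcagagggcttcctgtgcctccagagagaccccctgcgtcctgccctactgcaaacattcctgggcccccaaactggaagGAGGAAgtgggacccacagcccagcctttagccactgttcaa
Ctsg: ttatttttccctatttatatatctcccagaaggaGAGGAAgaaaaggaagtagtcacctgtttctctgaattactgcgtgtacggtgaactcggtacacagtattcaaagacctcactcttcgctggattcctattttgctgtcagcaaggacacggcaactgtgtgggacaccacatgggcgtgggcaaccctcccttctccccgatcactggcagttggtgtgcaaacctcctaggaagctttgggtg
Ms4a3: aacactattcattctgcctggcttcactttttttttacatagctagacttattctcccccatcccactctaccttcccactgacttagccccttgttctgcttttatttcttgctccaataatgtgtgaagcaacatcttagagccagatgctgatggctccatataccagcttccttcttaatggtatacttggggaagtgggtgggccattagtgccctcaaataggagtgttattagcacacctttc

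Searched on both strands of the full 250 bases, GAGGAA occurred in 4 of the 5 windows, with 2 matches in Mpo and 1 each in Elane, Prtn3 and Ctsg, and all 5 matches read in the direction of the gene. It was present in 23.3% of the 32851 RefSeq promoter windows of that length. The longer GAGGAAGT, which contains GAGGAA and was added after the windows had been read, occurred in Mpo, Elane and Prtn3 and in 2.44% of all windows. Elane and Prtn3, 3138 bases apart, held it at similar places (from −85 and −95 relative to the RefSeq start), so their matches may not be independent. CAACNG, a core of MYB sites, was found in Elane, Prtn3 and, with 2 matches, Ctsg, against 29.3% of all windows, and the matches of Elane and Prtn3 lay in the part that is not printed. TGTGGT, a RUNX core, was found in Ctsg alone (14% of all windows), and TTGCNNAA, a C/EBP core, in none of the 5 windows (9.56% of all). No 2 of these matches overlapped, apart from the shorter and longer ETS forms. The matches are descriptions of letters and were not tested.

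Library totals ran from 11172547 to 18545198 counts, lowest in the leucogen group (11172547 to 14766064) and highest in the QJSB group (16758401 to 18545198). The 5 genes were covered by 514 to 85016 counts in a library. The error of counting and the spread between mice were not separated. The labelled tissue was borne out by its markers in the normal libraries, where the summed levels of 8 erythroid genes (11576 to 12828 CPM, counts scaled to library size with TMM factors) and 8 B cell genes (1594 to 1615 CPM) were high. In the 9 cyclophosphamide libraries the erythroid genes summed to 76.1 to 728 CPM and the B cell genes to 8.51 to 115 CPM. All 8 erythroid genes and 7 of 8 B cell genes were called lower in model against normal. None of the 10 late neutrophil markers (Ltf, Camp, Ngp, Lcn2, Mmp8, Mmp9, Cxcr2, Retnlg, S100a8 and S100a9) was at 0 in any group, and their sum was 18909 to 22499.8 CPM in normal, 4425 to 19179 in model, 6806 to 35351 in QJSB and 47799 to 57387 in leucogen. Model 1 and QJSB 1 stood apart as the libraries with the lowest sums in their groups. A level in RNA of whole marrow cannot tell more cells of a type from more RNA in each such cell, and the part of these shifts in the results below was not tested.

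In the normal marrow the 5 genes together made up 0.0811% ± 0.0102 of all counts (SD, n = 3). The share was 0.813% ± 0.141 in model, 0.863% ± 0.0969 in QJSB and 0.376% ± 0.0524 in leucogen. Levels between genes were compared on FPKM, which is divided by transcript length. In normal marrow Elane was the highest at 199 ± 31.5 FPKM, followed by Ctsg at 138 ± 26.1, Mpo at 74.8 ± 7.94, Ms4a3 at 30.9 ± 4.22 and Prtn3 at 15.4 ± 3.42. In model marrow Ctsg had the highest mean at 1893 ± 332 FPKM, before Elane at 1379 ± 389, Mpo at 756 ± 246, Ms4a3 at 288 ± 73.8 and Prtn3 at 184 ± 58.1. Among all genes of a library, Ctsg ranked 168 to 247 by FPKM in the normal libraries and 9 to 11 in the model libraries, and Prtn3 ranked 2280 to 3660 and 114 to 194.

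Model against normal asked what cyclophosphamide did to these genes. All 5 were higher, by 6.38-fold to 12.7-fold, and no model library overlapped a normal one. A gene was called at a fold change over 1.5 (an absolute log2 fold change over 0.585) with a Benjamini-Hochberg adjusted p under 0.05 over all genes tested. By that rule 5 of 5 were called higher, where 16.1% of the 14752 genes tested were called higher (19% lower) and 26.9% were higher without overlap.

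Mpo stood at 414.8, 341.7 and 345.4 CPM in the normal libraries 1 to 3 and at 3236, 2315 and 4711 CPM in the model libraries. Its log2 fold change was 3.22 (SE 0.27, edgeR quasi-likelihood adjusted p = 6.2e-05). Elane went from 222, 168 and 171 CPM to 1169, 839 and 1564 CPM, a log2 fold change of 2.67 (SE 0.24, edgeR adjusted p = 9.2e-05). For these 2 genes and for Prtn3, model 2 was the lowest and model 3 the highest model library.

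Prtn3 was at 47.7, 56.4 and 35.5 CPM in normal and 443, 376 and 717 CPM in model, with a log2 fold change of 3.46 (SE 0.29, edgeR adjusted p = 9.9e-05). Ctsg rose from 167, 145 and 112 CPM to 1400, 2109 and 1832 CPM. Its log2 fold change of 3.66 (SE 0.23, edgeR adjusted p = 1.6e-05) was the largest of the 5 and placed it at rank 24 among the rises of all genes tested. Ms4a3 rose from 99.7, 80.7 and 76.8 CPM to 588, 957 and 659 CPM, a log2 fold change of 3.10 (SE 0.22, edgeR adjusted p = 3.0e-05). In Ctsg and Ms4a3 model 2, the lowest library for the other 3 genes, was the highest. With each of the 6 libraries left out in turn, all 5 genes were called.

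**Figure D1:**
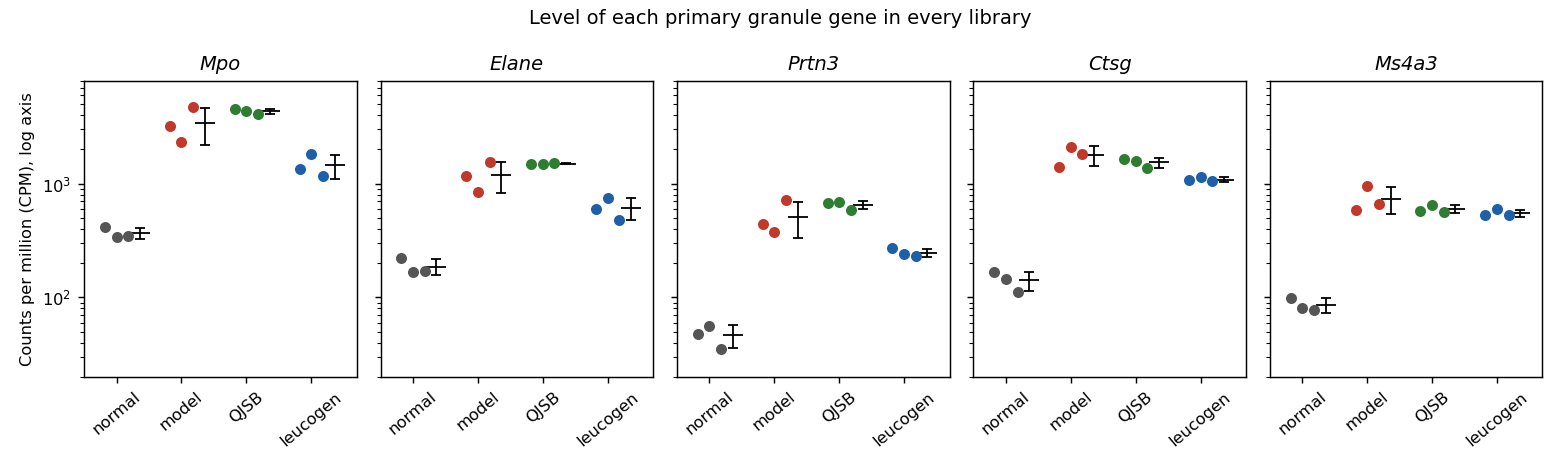
CPM (log axis) of each gene in the 12 libraries, 3 per group (points in the order of replicates 1 to 3), with the mean and SD of the group as a bar beside them. All cyclophosphamide libraries lie above all normal libraries, and the leucogen libraries lie below the model libraries for Mpo, Elane, Prtn3 and Ctsg but not for Ms4a3.

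QJSB and leucogen were each also set against normal marrow, with the same normal libraries as reference. All 5 genes were called higher in both. In QJSB, where 18% of all genes tested were called higher, the log2 fold changes were 3.58 for Mpo, 3.02 for Elane, 3.83 for Prtn3, 3.46 for Ctsg and 2.82 for Ms4a3. In leucogen, where 17.8% were called higher, they were 2.00 for Mpo, 1.73 for Elane, 2.43 for Prtn3, 2.97 for Ctsg and 2.70 for Ms4a3.

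QJSB against model asked whether the granule altered these genes in cyclophosphamide-treated marrow. No difference of any of the 5 passed the test. Mpo was at 4566, 4359 and 4093 CPM in QJSB libraries 1 to 3, within the range of the model libraries. Elane was at 1487, 1499 and 1514 CPM, also within the range of model. The log2 fold changes were 0.33 for Mpo (95% interval −0.29 to 0.95), 0.32 for Elane (−0.22 to 0.86), 0.34 for Prtn3 (−0.22 to 0.90), −0.23 for Ctsg (−0.71 to 0.26) and −0.31 for Ms4a3 (−0.80 to 0.18). A rise of Mpo of up to 1.93-fold and a fall of Ms4a3 to as little as 0.574 of its model level thus lie within the intervals.

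The count of 0 called members came from edgeR, with adjusted p from 0.771 to 0.820, and 0 of the 5 had an unadjusted p under 0.05. Without model 3, edgeR still called 0 of the 5, but 3 of them had an unadjusted p under 0.05. Their median log2 fold change was then 0.57 over the 5. In that fit 1561 of 14888 genes had an unadjusted p under 0.05. DESeq2 and limma on FPKM called 0 of the 5 as well. Over all 14486 genes edgeR called 0 (0%) with 723 at an unadjusted p under 0.05 (4.99%), DESeq2 called 8 and limma on log2(FPKM + 0.1) called 0. The comparison was also fitted with the replicate number as a block, though no label states a pairing. That fit called 18 genes and 0 of the 5 members.

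The 3 QJSB libraries lay closer together than the 3 model libraries. The coefficient of variation of CPM was 35.3% in model and 5.47% in QJSB for Mpo, 30.5% and 0.928% for Elane, 35.3% and 8.39% for Prtn3, 20.1% and 10.0% for Ctsg, and 26.6% and 8.23% for Ms4a3. The difference in spread was not tested, and 3 mice a group give each of these values little precision.

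Leucogen against model compared the reference drug with cyclophosphamide alone. Mpo, Elane, Prtn3 and Ctsg were lower under leucogen, to 0.426, 0.515, 0.484 and 0.615 of their model levels, while Ms4a3 was not called. The 4 of 5 called lower stand beside 11.5% of the 14184 genes tested, and the same 4 were lower without overlap, as were 23.8% of all genes.

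Mpo was at 1350, 1836 and 1161 CPM in the leucogen libraries 1 to 3, with a log2 fold change of −1.23 (SE 0.28, edgeR adjusted p = 0.0137). Elane was at 601, 748 and 482 CPM, with −0.96 (SE 0.25, edgeR adjusted p = 0.0214). Prtn3 was at 270, 239 and 230 CPM, with −1.05 (SE 0.23, edgeR adjusted p = 0.0122). The highest leucogen library of each of the 3 lay below model 2, the lowest model library.

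Ctsg was at 1072, 1148 and 1047 CPM, all below the lowest model library, with a log2 fold change of −0.70 (SE 0.18, edgeR adjusted p = 0.0227). Ms4a3 was at 527, 594 and 531 CPM against 588 to 957 CPM in model, so that the groups overlapped. Its log2 fold change of −0.41 had a 95% interval of −0.85 to 0.03 (edgeR adjusted p = 0.143). The count of 4 rested on single libraries. It was 0 without leucogen 3, 1 without leucogen 1 and 2 without model 3, at log2 fold changes that stayed between −1.43 and −0.90 for Mpo, −1.13 and −0.68 for Elane, −1.21 and −0.70 for Prtn3, and −0.87 and −0.53 for Ctsg over all alternatives.

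QJSB against leucogen compared the 2 treatments, given at different doses and on the same cyclophosphamide. Mpo was 2.95-fold higher under QJSB (log2 fold change 1.56, SE 0.21, edgeR adjusted p = 0.0031), Elane 2.42-fold (1.28, SE 0.18, edgeR adjusted p = 0.0034) and Prtn3 2.61-fold (1.39, SE 0.14, edgeR adjusted p = 0.0028). The lowest QJSB library of Prtn3, at 591 CPM, was above the highest leucogen library at 270 CPM. The calls of these 3 held with each library left out in turn, and 12.9% of the 14266 genes tested were called higher.

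Ctsg, at 1665, 1585 and 1367 CPM under QJSB, was higher than leucogen without overlap, as were 25.6% of all genes. Its log2 fold change of 0.48 (95% interval 0.13 to 0.82, edgeR adjusted p = 0.0448) was below the fold cutoff. Ms4a3, at 574, 656 and 569 CPM, overlapped leucogen, with a log2 fold change of 0.10 (95% interval −0.21 to 0.41, edgeR adjusted p = 0.608). A difference of Ms4a3 above 1.33-fold lies outside that interval.

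**Figure D2:**
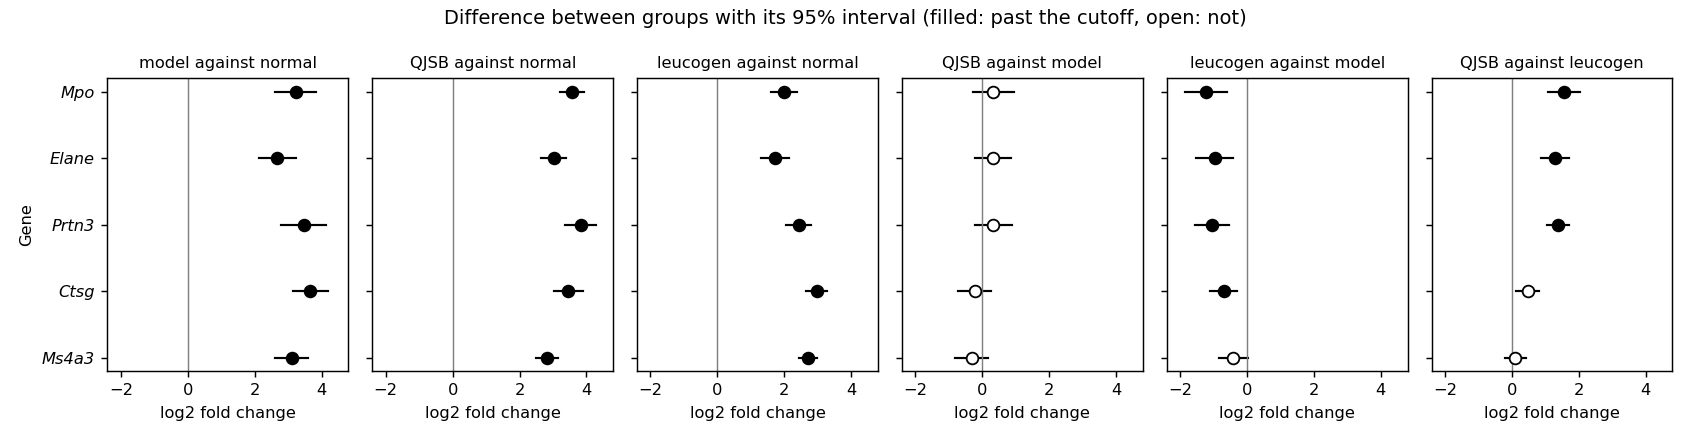
Log2 fold change (points) with its 95% interval (lines) for the 5 genes in the 6 comparisons, from edgeR, where filled points passed the cutoff on fold and adjusted p. The 3 comparisons with normal lie far to the right of 0 for all 5 genes, and in QJSB against leucogen Mpo, Elane and Prtn3 lie apart from Ctsg and Ms4a3.

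Ordered by mean CPM, Mpo, Elane and Prtn3 had the same order of groups, normal, leucogen, model and QJSB. The neighbours model and QJSB overlapped, and the other neighbours did not. Ctsg had the order normal, leucogen, QJSB and model, with QJSB and model overlapping. Ms4a3 had the order normal, leucogen, QJSB and model, and its 3 cyclophosphamide groups, at 551 ± 37.2, 600 ± 49.3 and 735 ± 195 CPM (SD, n = 3 each), overlapped throughout.

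The values of Mpo, Elane and Prtn3 ran most closely together. Over the 9 cyclophosphamide libraries, Pearson's r of log2 CPM was 0.995 between Mpo and Elane, 0.968 between Mpo and Prtn3 and 0.960 between Elane and Prtn3. It was 0.810 between Ctsg and Ms4a3. Ctsg had r of 0.686 with Mpo, 0.637 with Elane and 0.693 with Prtn3. Ms4a3 had r of 0.212 with Mpo, 0.164 with Elane and 0.195 with Prtn3. The model library lowest for Mpo, Elane and Prtn3 was, as given above, the highest model library for Ctsg and Ms4a3. The coefficients were not computed without that library, so how far the lower ones rest on it was not tested. These coefficients describe libraries that share groups and scaling and carry no test.

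The balance of Mpo to Ctsg within a library does not depend on the scaling between libraries. The difference of their log2 CPM was 1.31, 1.24 and 1.63 in normal and 1.46, 1.46 and 1.58 in QJSB. It was 0.33, 0.68 and 0.15 in leucogen. It was 1.21, 0.13 and 1.36 in model, where model 2 lay just below the leucogen libraries and the others near QJSB. The QJSB and leucogen groups did not overlap, and their means differed by 1.11, with SDs of 0.07 and 0.27 (n = 3 each). The same held for Mpo to Ms4a3, at 2.86 ± 0.13 in QJSB and 1.37 ± 0.25 in leucogen. In both cases the exact two-sided permutation test gave p = 0.1, which is the smallest it can give with 3 libraries against 3.

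Balances of Elane and Prtn3 to Ctsg and Ms4a3 also separated QJSB from leucogen without overlap. Elane to Ms4a3 ran from 1.19 to 1.41 in QJSB and from −0.14 to 0.33 in leucogen. The means differed by 1.29 for Prtn3 to Ms4a3, 0.91 for Prtn3 to Ctsg and 0.82 for Elane to Ctsg, and all 4 pairs had an exact permutation p = 0.1. Mpo to Elane was 1.53 ± 0.09 in QJSB and 1.24 ± 0.07 in leucogen, and Ctsg to Ms4a3 was 1.36 ± 0.15 and 0.98 ± 0.04, each without overlap and with an exact permutation p = 0.1. Mpo to Elane was 0.98 ± 0.07 in normal and 1.51 ± 0.07 in model, again without overlap (exact permutation p = 0.1). Mpo to Prtn3 overlapped between QJSB, at 2.73 ± 0.07, and leucogen, at 2.53 ± 0.35 (exact permutation p = 0.4), and Elane to Prtn3 overlapped as well, at 1.12 to 1.36 and 1.07 to 1.64 (exact permutation p = 0.8). Of 10 pairs of genes compared in each of 6 comparisons, none could reach an exact p under 0.1.

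**Figure D3:**
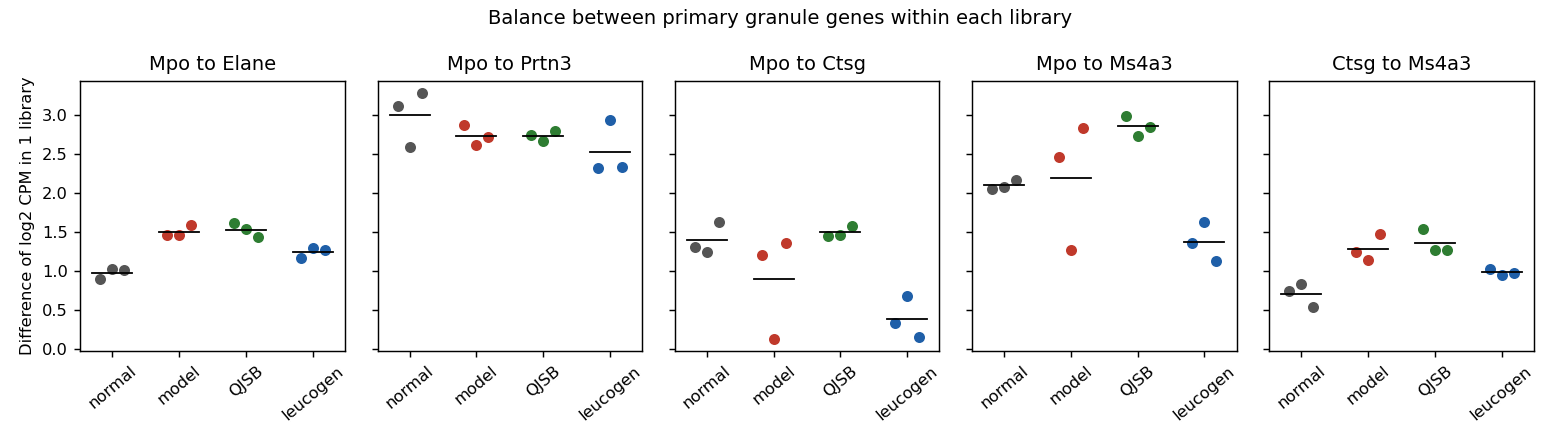
Difference of log2 CPM between the genes named above each panel, within each of the 12 libraries (points, 3 per group) with the group mean (line). QJSB and leucogen separate for Mpo to Ctsg and for Mpo to Ms4a3, while model 2 lies near the leucogen libraries in both panels.

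Of all genes tested, 16.1% were called higher and 19% lower in model against normal, and 11.6% and 11.5% in leucogen against model. In QJSB against leucogen 12.9% were called higher and 11.7% lower. These shares stand beside the counts of every list below. Around the 5 genes, the other contents of primary granules did not move as a block. In model against normal 5 of 10 were called higher and 2 lower, with a median log2 fold change of 0.62 beside 0.02 over all genes tested. Prss57, a further serine protease of these granules, rose most, with a log2 fold change of 2.94, from 11.7 ± 1.38 to 89.5 ± 29.5 CPM. Lyz1 and Lyz2, the lysozymes, fell by 1.57 and 0.90 on the log2 scale. In leucogen against model 2 were called higher, Lyz1 (1.72) and Lyz2 (1.93), and 2 lower, Prss57 (−0.86) and the lysosomal enzyme Gusb (−0.83). In QJSB against leucogen 4 were called higher, led by Arsa (1.08), Prss57 (1.02) and Gusb (0.98), and both lysozymes lower (Lyz2 −1.88), where 11.7% of all genes were called lower. Prss57 thus had the order of groups of Mpo, Elane and Prtn3, at 43.6 to 53.4 CPM in leucogen and 93.8 to 111.6 CPM in QJSB. The 2 lower calls in model against normal became 0 without normal 2 and 1 without normal 1, normal 3 or model 1. For leucogen against model the 2 higher calls became 1 without leucogen 2 or 3, and the 2 lower calls 1 without leucogen 1, leucogen 3 or model 3.

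Of 6 genes that activate, fold or pack the proteases, 4 were called higher and 0 lower in model against normal, with 5 of 6 at an unadjusted p under 0.05. Of all genes tested there, 16.1% were called higher and 19% lower. Calr, the chaperone calreticulin that binds nascent myeloperoxidase, rose from 328 ± 30.2 to 1163 ± 328 CPM (log2 fold change 1.83). Srgn, which encodes serglycin, had a log2 fold change of 1.71, and Ctsc, which encodes the activating cathepsin C, one of 0.66. Under leucogen compared with model group, Calr (−1.63) and its relative Canx (−1.07) were called lower and Lyst, a gene of granule size, higher (1.21). Srgn (−0.24) and Ctsc (0.13) were not called. In QJSB against leucogen Calr (1.73) and Canx (0.82) were called higher and Lyst lower (−0.99). Of these, the 2 higher calls became 1 without leucogen 1 or 3, and the lower call was lost without QJSB 2 or any one leucogen library and became 2 without QJSB 1.

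Of the protease inhibitors, 5 of 6 were tested. The shares of all genes called higher and lower were 16.1% and 19% in model against normal. In model against normal Serpinb1a, which inhibits all 3 proteases (1.05), and Serpina3g (1.57) were called higher, and Serpinb6a (−0.61) and Serpinb6b (−2.37) lower. In leucogen against model Serpinb1a (1.17) and Serpinb6a (0.96) were called higher. Slpi, an inhibitor of elastase, was not called in model against normal (0.11) or in leucogen against model (0.54). In QJSB against leucogen Serpinb6a was called lower (−0.94), and Serpinb1a was at −0.95 with an edgeR adjusted p = 0.056. In model against normal the 2 higher calls became 0 without normal 2 and 1 without normal 1, normal 3 or model 3, and the 2 lower calls 1 without any library but model 1. The 2 higher calls in leucogen against model became 0 without leucogen 3 and 1 without leucogen 2. In QJSB against leucogen the lower call was lost without leucogen 3 and became 3 without QJSB 1 and 2 without QJSB 2.

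Among 12 transcription factors of myeloid cells, 5 were called higher and 1 lower in model against normal, beside 16.1% and 19% of all genes tested. Not all of the 12 are established regulators of the 5 members. Gfi1, a repressor needed for neutrophil development, rose most (2.12), with Cebpb (1.68), Cebpa (1.57), Klf4 (1.28) and Spi1 (0.89), which encodes PU.1. Egr1 was the one called lower (−3.03). Myb (0.20), Runx1 (0.00) and Cebpe (0.36), a factor of the step to secondary granules, were not called. Cebpa, which drives the granulocytic fate, was at 20.7 ± 1.18 CPM in normal, 61.2 ± 8.82 in model, 63.0 ± 4.10 in QJSB and 35.1 ± 3.98 in leucogen. It was called lower in leucogen against model (−0.79) and higher in QJSB against leucogen (0.82). In these same comparisons Runx1 was called the other way (0.61 and −0.65). Cebpb (1.48) and Gfi1 (0.73) were also called higher in QJSB against leucogen. Of the 12 factors, 2 were called higher and 2 lower in leucogen against model, beside 11.6% and 11.5% of all genes tested. In QJSB against leucogen 3 were called higher and 1 lower, beside 12.9% and 11.7%. These calls rested on single libraries. In leucogen against model the 2 higher calls became 0 without leucogen 1 or 3 and 1 without leucogen 2, model 1 or model 2, and the 2 lower calls 0 without leucogen 3 and 1 without leucogen 1, model 1 or model 3. In QJSB against leucogen the 3 higher calls became 1 without leucogen 1, and the lower call was lost without leucogen 1, leucogen 3 or QJSB 2.

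Receptors of myeloid growth factors were called higher in 5 of 6 cases in model against normal, beside 16.1% of all genes tested. Csf2rb (2.18) and Flt3 (1.92) led, with Kit at 0.62. Csf3r, the G-CSF receptor, was the sixth, at −0.70 with an edgeR adjusted p = 0.068. Flt3, a receptor of early progenitors, was lower in leucogen than in model (−1.87) and in QJSB was above leucogen (1.91), at 118 ± 6.98 and 30.8 ± 1.77 CPM. Csf1r was the other one called lower in leucogen against model (−0.98). The 5 higher calls in model against normal became 3 without normal 2, and the 3 in QJSB against leucogen became 1 without leucogen 3.

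In model against normal the secondary and tertiary granule genes, which follow the primary ones in maturation, were mostly lower or not called. Of 14 tested there, 5 were called lower and 1, Hp, higher (1.00), with a median log2 fold change of −0.98. Mmp9 (−2.79), Olfm4 (−2.54), Mmp8 (−1.79) and Camp (−1.69) were among the 5, while Ltf (−1.46, edgeR adjusted p = 0.051) and Ngp (−0.88) were not called. In leucogen against model 11 of 14 were called higher and 0 lower, with a median of 1.70 beside −0.05 over all genes tested, of which 11.6% were called higher. Ltf was at 877 ± 538 CPM in model and 4505 ± 731 CPM in leucogen (log2 fold change 2.37), Camp at 223 ± 116 and 1199 ± 20.6 CPM (2.43) and Ngp at 1186 ± 607 and 3970 ± 673 CPM (1.75). The count of 11 was 4 without leucogen 3, 6 without leucogen 2 or model 3 and 7 without leucogen 1, and 6 with no filter on low counts. Of these 14 genes, 6 are also among the late neutrophil markers above. In model against normal the 1 higher call became 3 without model 1.

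In QJSB against leucogen 0 of these 14 genes were called by edgeR, with 2 at an unadjusted p under 0.05. DESeq2 called 1 higher and 2 lower, and limma on log2(FPKM + 0.1) 1 lower. In QJSB against model edgeR called 0 of 14 with 1 at an unadjusted p under 0.05 (DESeq2 0, limma 0), and 3 higher with the replicate number as a block. The QJSB libraries were uneven here, with Ltf from 648 to 4296 CPM in libraries where Elane ran from 1487 to 1514 CPM.

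**Figure D4:**
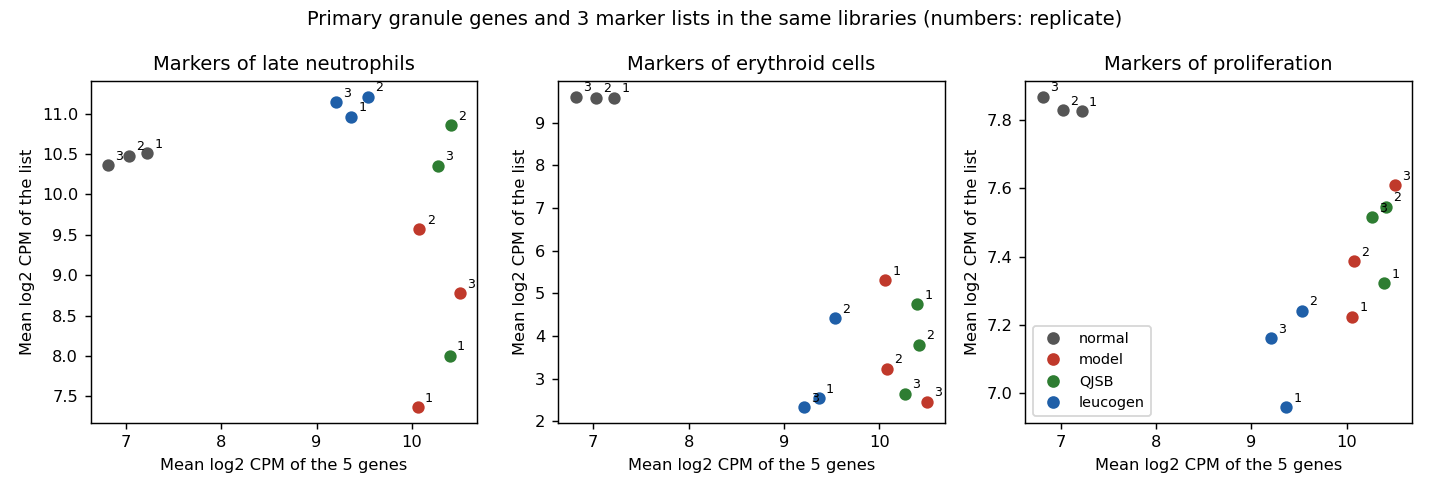
Mean log2 CPM of the 5 genes (horizontal) against that of the late neutrophil, erythroid and proliferation marker lists (vertical) in the 12 libraries, coloured by group and numbered by replicate. The 6 model and QJSB libraries lie at the right and range widely on the late neutrophil axis, the leucogen libraries lie highest there, and the normal libraries lie highest for erythroid and proliferation markers.

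The 10 proliferation markers summed to 7917 to 8197 CPM in normal and to 3389 to 4693 CPM in the cyclophosphamide libraries, and 4 of 10 were called lower in model against normal (1 without model 1). Monocyte markers, a lineage that shares its progenitors with neutrophils, were called higher in 5 of 7 cases in model against normal and lower in 3 of 7 in leucogen against model. Over all genes tested 16.1% were called higher and 19% lower in the first comparison, and 11.5% lower in the second. Csf1r, Klf4 and Irf8 of the monocyte list also belong to the receptor or transcription factor lists above. The count of 5 became 3 without normal 1, normal 3 or model 2, and the count of 3 became 1 without model 1 or any one leucogen library. Markers of stem and progenitor cells were called higher in 4 of 8 and lower in 1 of 8 in model against normal, with the 4 becoming 2 without model 1 or any one normal library and the 1 becoming 2 without model 1. Of the promyelocyte markers that are not among the 5, Cst7 (3.47) and Prss57 rose in model against normal with Ctsc, and Clec12a (0.33) and Fcnb (1.82, 15.9 to 243 CPM in the model libraries) were not called. In leucogen against model Cst7 was called lower (−1.42) and Clec12a higher (1.29). The full list of 10 promyelocyte markers includes the 5 members. Of these 10, 6 were called lower there, among them the members Mpo, Elane, Prtn3 and Ctsg, beside 11.5% of all genes tested. The count of 6 became 3 without model 3, 1 without leucogen 1 and 0 without leucogen 3. In QJSB against leucogen 5 of the 10 were called higher and 2 lower, beside 12.9% and 11.7% of all genes tested. The 5 higher calls included the members Mpo, Elane and Prtn3, and 0 of the lower calls were members.

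Of 11 other heme peroxidases and granule serine proteases 6 were tested in model against normal, of which 4 were called lower and 0 higher, with 4 at an unadjusted p under 0.05. DESeq2 called 5 lower and 0 higher. Epx, the peroxidase of eosinophils, fell by 2.87 on the log2 scale and Prss34, a basophil protease, by 3.54. Basophil and mast cell markers summed to 215 to 268 CPM in normal and 64.5 to 156 CPM under cyclophosphamide, and eosinophil markers to 1322 to 1669 and 59.2 to 259 CPM. Lpo, the lactoperoxidase gene 2015 bases from Mpo, had no count in any library.

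Of 10 other MS4A genes 9 were tested in model against normal, with 4 called higher and 2 lower. Of all genes tested there, 16.1% were called higher and 19% lower. Ms4a6d, a monocyte gene 24647 bases from Ms4a3, rose from 5.66 ± 1.07 to 46.7 ± 14.8 CPM (log2 fold change 3.05), and Ms4a6c (2.04), Ms4a6b (1.83) and Ms4a4a (2.66) rose with it. Ms4a2, the mast cell receptor gene 5777 bases from Ms4a3, was not called (−0.10). Ms4a1, which encodes the B cell antigen CD20, was at 232 ± 25.8 CPM in normal and at most 0.537 CPM in any cyclophosphamide library. Ms4a4a was the one gene of the family called in leucogen against model (−1.48) and in QJSB against leucogen (0.96). The first call was lost with any library left out but model 3, without which 2 genes of the family were called lower. The second was lost without QJSB 3 or leucogen 3.

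**Figure D5:**
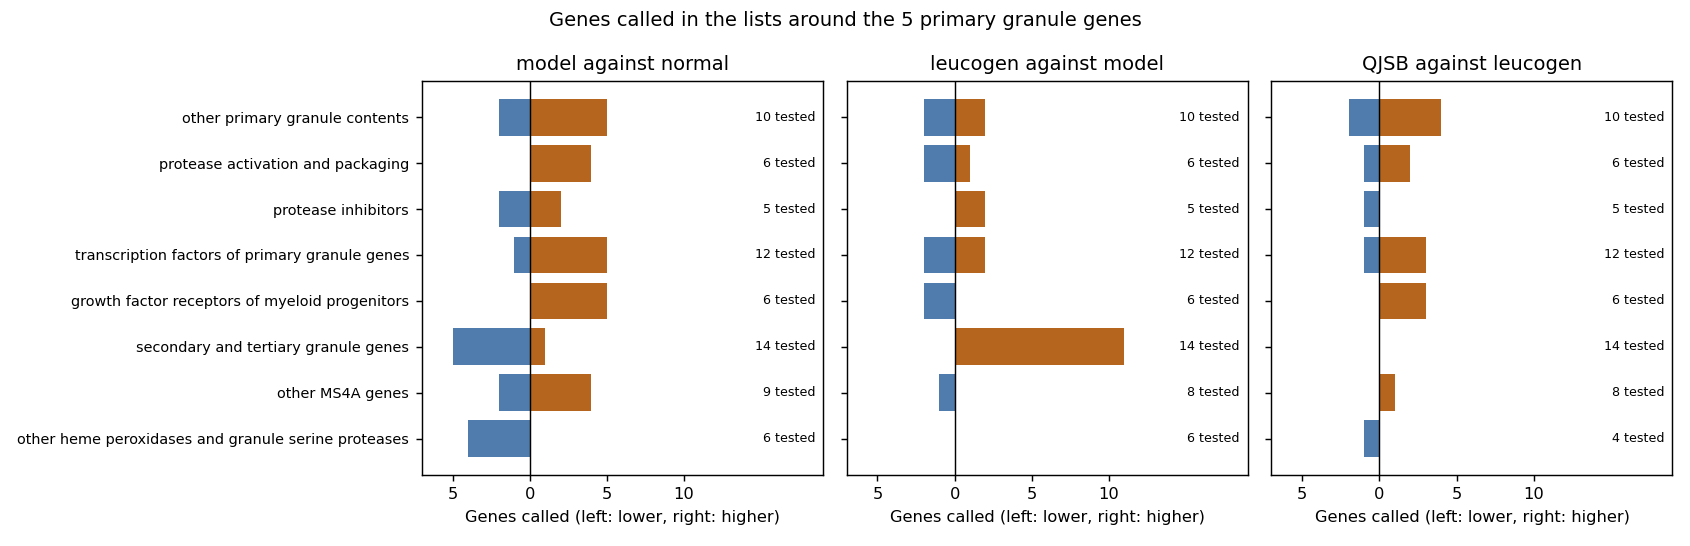
Number of genes called lower (left of 0) and higher (right of 0) in 8 lists around the 5 genes, in 3 comparisons, with the number tested at the right of each row. Secondary and tertiary granule genes were called lower in 5 of 14 and higher in 1 in model against normal, and higher in 11 of 14 in leucogen against model.

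Within 50 kb of the 5 genes the table held 26 other genes. Of 16 tested in model against normal 6 were called higher and 3 lower, and of 17 tested in leucogen against model 2 were called higher and 3 lower. Over all genes tested 16.1% were called higher and 19% lower in the first comparison, and 11.6% and 11.5% in the second. Beside Elane, Cfd, an elastase relative 2637 bases away, stayed under 1 CPM in the mean of every group, and Med16 was called higher in model against normal (0.91). Bzrap1, 7653 bases from Mpo, was also called higher (1.45). Lppr3, on the minus strand, rose from 8.05 ± 0.40 to 81.9 ± 22.8 CPM (log2 fold change 3.35, edgeR adjusted p = 1.9e-05). It overlaps the start of the longest annotated form of Prtn3, and the strand setting of the counting is not stated, so reads of the overlap cannot be assigned. An antisense gene in Mpo, Gm11505, had at most 7 counts in a library. Beside Ctsg, Mcpt8, a basophil protease, was called lower in model against normal (−1.22), and Mcpt4, Gzme and Gzmd were at or near 0.

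Over all 12 libraries and 15310 genes, the genes with the highest Pearson's r to the mean log2 CPM of the 5 were Gatm (0.997), Mgat5 (0.994), Prss57 (0.994), Vwa8 (0.989), Lppr3 (0.988), Trim45 (0.988), Tmed3 (0.987), Pecr (0.987), Ltbr (0.987) and Ramp1 (0.987). Within the 9 cyclophosphamide libraries, r was 0.990 for Mgat5, 0.969 for Gatm and 0.962 for Prss57 and as low as 0.858 for Tmed3. Taken gene by gene over the 12 libraries, Mpo was most like Dtx4 (0.995), Cst7 (0.995) and Uggt1 (0.994). Elane was most like Emilin1 (0.994), Cst7 (0.993) and Uggt1 (0.992). Prtn3 was most like Tmem180 (0.991), Prss57 (0.989) and Mgat5 (0.989). Ctsg was most like Dna2 (0.994), Dio2 (0.990) and Il1rl2 (0.989), and Ms4a3 most like Plac8 (0.990), Il1rl2 (0.989) and Dio2 (0.987). Within the 9 cyclophosphamide libraries r was lower for Ctsg (Dna2 0.891, Dio2 0.720, Il1rl2 0.812) and for Ms4a3 (Plac8 0.938, Il1rl2 0.679, Dio2 0.585). For the genes named with Mpo, Elane and Prtn3 it ran there from 0.955 to 0.991.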

How the data were processed

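RNA of femoral bone marrow from 12 mice was sequenced after removal of ribosomal RNA, in strand-specific libraries. Before deposit, the authors removed poor reads (Seqtk) and aligned the rest to GRCm38.p4 using Hisat2; the submitters' processing notes name mm10. The program that counted reads, its strand setting and the annotation are not given in the sources used here. The authors deposited for each gene and mouse a raw read count and an FPKM, the latter scaled to transcript length and library size. Both columns of all 12 mice were used, and 0 columns were left unused. Groups of the samples came from their titles, and the columns were assigned to the samples from what their headings mean and by elimination. Replicates are separate mice.

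Counts were fitted with edgeR 4.0.16 (R 4.3.3; TMM, filterByExpr, robust glmQLFit, glmQLFTest) on the 2 groups compared, with Benjamini-Hochberg adjustment over all genes tested. The fold cutoff is that of the study (1.5). CPM use TMM factors, and log2 CPM a prior count of 2. Intervals are at 95%. DESeq2 1.42.0, limma 3.58.1 on log2(FPKM + 0.1), other scalings and filters, the replicate number as a block, all libraries in one fit and each library left out were the alternatives. Scripts were tested on simulated data. Same-numbered QJSB and model libraries correlated in their deviations from the group means (0.426, 0.123 and 0.107 over 15310 genes). No label states a pairing, and these values alone cannot show whether the numbers pair libraries.

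The members, the 17 gene lists and the motifs were chosen with earlier results of these data known, so no list is independent evidence. Named beside the members are, per list, the largest called rise and fall, genes of a described role, the genes nearest in pattern and neighbours within 50 kb; further examples were chosen after their values were seen. Promoter windows are RefSeq's (GRCm38.p6). Where a symbol had 2 rows, the one with more counts was used.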

Additional observations from a re-analysis of the deposited data

Results flagged for a closer look

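The effects of QJSB and leucogen on cyclophosphamide-treated marrow differed in 3 of the 5 genes by a direct test between the treated groups. The log2 fold change of QJSB against leucogen was 1.56 for Mpo, 1.28 for Elane and 1.39 for Prtn3, each past the edgeR cutoff. For each of the 3, all QJSB libraries were above all leucogen libraries. Over the 14266 genes tested, 12.9% were called higher and 25.6% were higher without overlap. Groups of 3 were too small to test for single libraries that stand apart.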

How the results depend on the processing

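The number of the 5 genes called was the same as reported under every alternative that keeps all libraries for model against normal (5), QJSB against normal (5), leucogen against normal (5), QJSB against leucogen (3) and QJSB against model (0), and with each library left out these counts ran from 5 to 5, 5 to 5, 5 to 5, 3 to 3 and 0 to 0. For leucogen against model the count of 4 ran from 0 to 4 with a library left out: 1 without leucogen replicate 1, 0 without leucogen replicate 3 and 2 without model replicate 3. No log2 fold change of a member changed sign. With the replicate block, which pairs libraries by number, Elane in leucogen against model kept its log2 fold change (−0.93, edgeR adjusted p = 0.0521) and was no longer called, leaving 3, and no other member's call changed. No label states that the numbers pair libraries in any comparison. Same-numbered QJSB and model libraries correlated in their deviations from the group means at 0.426, 0.123 and 0.107. The values were 0.181, 0.134 and 0.078 for QJSB and leucogen, and 0.106, −0.094 and −0.023 for leucogen and model. No such values were computed for libraries of different numbers, so they cannot show whether the numbers pair libraries. Over all genes, the 3276 calls of leucogen against model fell to 1724 without leucogen 1 and 1239 without leucogen 3, and the 3511 of QJSB against leucogen to 2157 and 1544. QJSB against model had 0 calls, 8 by DESeq2, 18 with the replicate block and 3 without QJSB 1. Scaling by total counts moved the median of all genes from 0.02 to 0.14 in model against normal and from −0.05 to −0.22 in leucogen against model, and the share of calls that were higher from 45.8% to 56.3% and from 50.1% to 30.2% (32.6% by limma on FPKM). Under that scaling the 4 members of leucogen against model kept their calls, at −1.40 for Mpo, −1.12 for Elane, −1.21 for Prtn3 and −0.87 for Ctsg, and Ms4a3 was at −0.58 (edgeR adjusted p = 0.0394), below the fold cutoff. The causes were not tested.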
